A study of Mus musculus with 6 samples.

Results

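The 10 genes described here encode the plasma apolipoproteins ApoA-I, A-II, A-IV, A-V, B, C-I, C-II, C-III, E and M. They were taken as every probe set whose platform symbol was exactly Apoa1, Apoa2, Apoa4, Apoa5, Apob, Apoc1, Apoc2, Apoc3, Apoe or Apom, which gave 16 of 45101 probe sets and 10 of 18193 named genes. RNA abundance was measured in liver with short oligonucleotide arrays, in 3 SRC-2 null samples and 3 wild-type samples. SRC-2 is the protein of Ncoa2, a coactivator that nuclear receptors recruit to switch on their target genes. All mice were female, on a C57 background, ovariectomized at 6 weeks of age and killed under Avertin anaesthesia 2 weeks later. The labels do not describe the null allele, the feeding state or whether the replicate numbers mark separate animals, so the spread behind the p-values is that between samples and may be technical.

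Apolipoproteins are the protein shell of the particles that carry fat and cholesterol in blood. ApoB is the structural scaffold of very-low-density lipoprotein and stays with its particle, whereas the A, C and E apolipoproteins exchange between particles and steer the enzymes and receptors that act on them. The liver makes most of them. In mice it also makes ApoA-IV, which is otherwise a product of the small intestine.

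Of the 10 genes, Apoa4 rose 3.75-fold in SRC-2 null liver, Apoc2 rose 1.39-fold and Apom fell 1.33-fold. The other 7 did not pass the test. All 10 passed the filter on dim genes. A gene was called at a limma adjusted p under 0.05 over all 11894 genes tested, a rule that called 4.67% of them (1.55% higher and 3.13% lower in null liver). The median log2 fold change was 0.03 over the 10 genes and 0.00 over all tested genes. Taken probe set by probe set, 3 of the 16 were called, all higher in null liver, against 2.41% of 19623 probe sets tested. The arrays of the 2 genotypes did not overlap for 3 of the 10 genes and 5 of the 16 probe sets, which was so for 23.4% of all genes and 20.3% of all probe sets tested.

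The promoters of the 3 called genes are shown first, with that of Apoa1, which lies in 1 gene cluster with Apoa4 and did not change detectably. Each sequence is the 250 bases before the RefSeq start (GRCm38.p6), read 5′ to 3′ on the strand of the gene. The Apoa4 window is chr9:46240594-46240843 on the plus strand, and the Apoa1 window is chr9:46228380-46228629 on the plus strand. The Apoc2 window is chr7:19677942-19678191 on the minus strand, and the Apom window is chr17:35131802-35132051 on the minus strand. Capitals mark matches, on either strand, to AGGTCA, the half-site of many nuclear receptors, or to CAAAGTCCA or CAAAGTTCA, forms of the site of the liver receptor HNF4A.
Apoa4: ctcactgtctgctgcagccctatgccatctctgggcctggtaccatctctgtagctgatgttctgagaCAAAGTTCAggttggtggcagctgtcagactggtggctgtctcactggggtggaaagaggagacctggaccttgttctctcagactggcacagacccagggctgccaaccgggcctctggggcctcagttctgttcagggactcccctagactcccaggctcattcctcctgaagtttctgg
Apoa1: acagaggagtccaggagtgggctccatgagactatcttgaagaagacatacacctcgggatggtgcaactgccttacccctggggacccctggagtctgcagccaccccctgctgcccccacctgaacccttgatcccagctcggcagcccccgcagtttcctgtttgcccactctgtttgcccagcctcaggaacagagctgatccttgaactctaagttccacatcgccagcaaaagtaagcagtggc
Apoc2: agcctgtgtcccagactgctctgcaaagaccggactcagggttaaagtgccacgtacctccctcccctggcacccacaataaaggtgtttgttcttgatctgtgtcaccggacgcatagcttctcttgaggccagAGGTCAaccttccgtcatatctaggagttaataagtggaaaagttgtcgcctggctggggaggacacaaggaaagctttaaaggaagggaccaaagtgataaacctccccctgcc
Apom: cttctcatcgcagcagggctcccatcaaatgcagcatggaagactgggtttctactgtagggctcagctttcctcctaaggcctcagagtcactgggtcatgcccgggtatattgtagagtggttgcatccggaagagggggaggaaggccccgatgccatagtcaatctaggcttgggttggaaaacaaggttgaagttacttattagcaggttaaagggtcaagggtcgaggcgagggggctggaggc

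The Apoa4 window held 1 CAAAGTTCA, with its first base at position -182 from the start, and the Apoc2 window held 1 AGGTCA, with its first base at -115. The Apoa1 and Apom windows held no match to these letters. Among 32817 windows of the same length, 14.0% held AGGTCA, 0.384% held CAAAGTCCA and 0.335% held CAAAGTTCA. CAAAGTTCA was added to the search after the sequences were seen, and the matches did not overlap. Windows were found for 8 of the 10 genes, all except Apoc1 and Apoc3, and the remaining match lay in 1 of the 2 Apoa2 windows.

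The medians of the 6 arrays lay between 4.17 and 4.24 on the log2 scale, a closeness that RMA normalization itself brings about. Ncoa2 was lower in null liver by its brightest probe set, with 5.60, 5.44 and 5.86 on the null arrays against 7.74, 7.92 and 8.53 on the wild-type arrays. Of the other 3 probe sets of the gene, 1 was also called lower (log2 fold change -2.16), while 2 (0.07 and -0.27) overlapped between genotypes and were not called. The labels do not say which part of the gene is altered. Replicate 3 of both genotypes stood apart from replicates 1 and 2, as the deviations from the group means of the 2 replicate 3 arrays correlated at 0.52 across 11894 genes. Differences within replicates 1 and 2 and within replicate 3 are therefore given beside the results they touch. Of 12 hepatocyte markers tested, none was called in limma (0 at an unadjusted p under 0.05). For all genes tested these shares were 4.67% and 17.2%. The genotypes did not overlap for 3 of the 12, near the 23.4% of all genes tested. Cps1, a urea cycle enzyme gene, was higher on all null arrays (13.27, 13.24 and 13.28 against 13.04, 13.10 and 13.15) and Fgg, a fibrinogen gene, was lower on all of them (13.29, 13.27 and 13.17 against 13.41, 13.37 and 13.35), neither with a call. Tat, a tyrosine-degrading enzyme gene, and Fgb, another fibrinogen gene, had log2 fold changes of -0.18 and -0.12. These probe sets are themselves very bright and may lie near saturation.

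Apoa4 encodes an exchangeable apolipoprotein of chylomicrons and high-density lipoprotein that takes part in fat transport and satiety. Its brighter probe set, 1436504_x_at, read 12.30, 12.39 and 12.35 log2 units on the null arrays, against 10.52, 10.45 and 10.36 on the wild-type arrays. Every null array was above every wild-type array, and the gap between the groups was far wider than the spread within either. The means were 12.35 ± 0.04 in null and 10.44 ± 0.08 in wild-type liver (SD, n = 3 each), a log2 fold change of 1.91 (SE 0.08, 95% interval 1.72 to 2.09, limma adjusted p = 9.64e-06). By unadjusted p it ranked 10 among 11894 genes, and by fold it ranked 4 among the 184 genes called higher.

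The other Apoa4 probe set, 1417761_at, read 11.88, 11.95 and 11.70 in null liver and 9.75, 9.79 and 9.53 in wild-type liver. Its rise was 4.45-fold (log2 fold change 2.15, SE 0.11), with a limma adjusted p of 9.32e-05 over all single-gene probe sets. The groups were again fully separated. Probe sets ending in _x_at can detect related transcripts, and this probe set carries no such suffix. The difference of the brighter probe set was 1.87 log2 units within replicates 1 and 2 and 1.99 within replicate 3. Apoa4 stayed called under each of the 16 alternative settings that gave an adjusted p, with log2 fold changes of 1.87 to 2.15. The exact permutation test of its value alone gave p = 0.1, the smallest that 3 against 3 arrays allow.

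Apoc2 encodes the cofactor that lipoprotein lipase needs to break down triglyceride in circulating particles. Its probe set read 11.53, 11.71 and 11.67 in null liver, against 11.15, 11.20 and 11.13 in wild-type liver. The lowest null array lay above the highest wild-type array. The log2 fold change was 0.48 (SE 0.08, 95% interval 0.28 to 0.67, limma adjusted p = 0.0174), with 0.44 within replicates 1 and 2 and 0.54 within replicate 3. The call was lost without null replicate 2 (adjusted p = 0.0820), without null replicate 3 (0.0550) and without wild-type replicate 1 (0.0677) or 2 (0.0691), and with replicates 1 and 2 only (0.0992), while the log2 fold change stayed between 0.44 and 0.53. Over all single-gene probe sets its adjusted p was 0.0387.

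Apom encodes a lipocalin that carries sphingosine-1-phosphate on high-density lipoprotein. The brighter of its 2 probe sets, 1419095_a_at, read 10.98, 11.09 and 11.04 in null liver, against 11.54, 11.44 and 11.37 in wild-type liver. All null arrays lay below all wild-type arrays, and the log2 fold change was -0.41 (SE 0.08, 95% interval -0.61 to -0.22, limma adjusted p = 0.0299). The other, 1419096_at, read 10.76, 10.91 and 11.13 in null liver and 11.24, 11.20 and 11.24 in wild-type liver, so that its highest null value came close to the lowest wild-type value. Its log2 fold change was -0.29, with a limma adjusted p of 0.289. Over all single-gene probe sets neither was called, with an adjusted p of 0.0615 for the brighter one. The gene's call was lost without null replicate 1 (adjusted p = 0.105), 2 (0.0824) or 3 (0.0759) and without wild-type replicate 1 (0.116) or 2 (0.12), and with replicates 1 and 2 only (0.0783). The difference of the brighter probe set was -0.45 within replicates 1 and 2 and -0.34 within replicate 3. For 1419096_at it was -0.38 within replicates 1 and 2 and -0.12 within replicate 3.

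**Figure D1:**
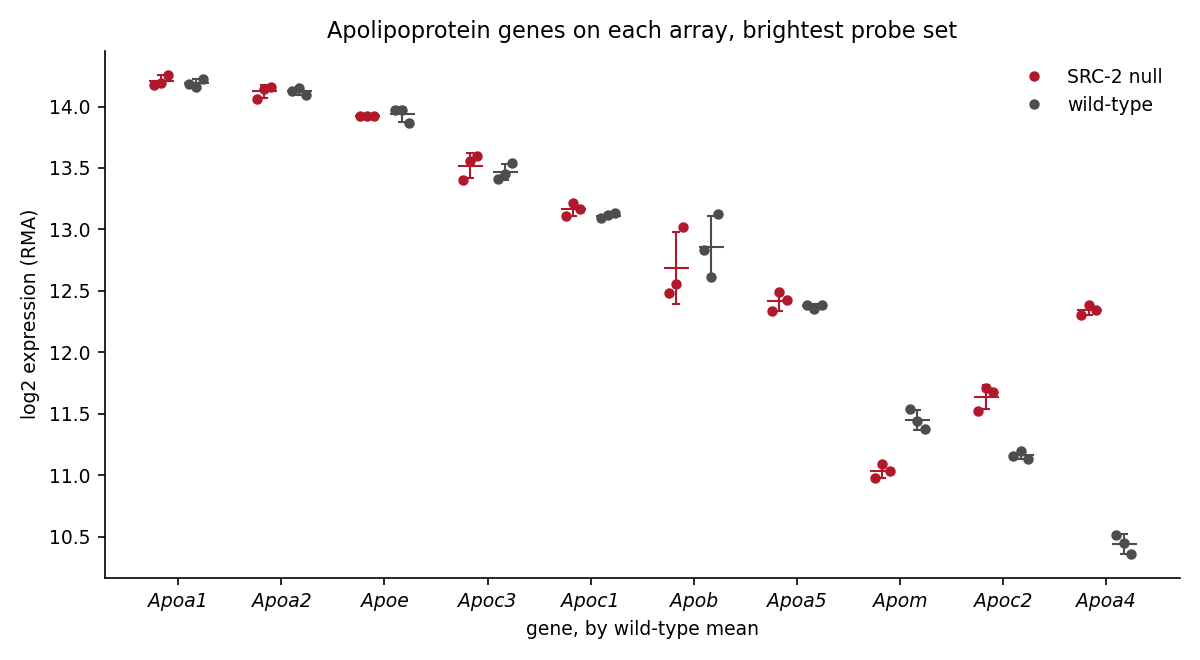
Log2 expression (RMA) of the 10 apolipoprotein genes on each array, brightest probe set, with SRC-2 null arrays in red to the left of wild-type arrays in grey; bars are the mean and SD of 3 arrays. The groups are separated for Apoa4 (null 12.35 against wild-type 10.44), Apoc2 (11.64 against 11.16) and Apom (11.04 against 11.45), and overlap for the other 7 genes.

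Apoa1 and Apoa2, which encode the most abundant proteins of high-density lipoprotein, were not called. ApoA-I also activates the cholesterol-esterifying enzyme LCAT. The brightest Apoa1 probe set read 14.18, 14.19 and 14.26 in null liver and 14.18, 14.16 and 14.23 in wild-type liver, so the groups overlapped. The 4 Apoa1 probe sets had log2 fold changes of 0.02, 0.02, 0.03 and 0.03, none of them called. Apoa2 read 14.06, 14.15 and 14.16 in null and 14.13, 14.15 and 14.09 in wild-type liver, with a 95% interval of -0.18 to 0.18 on the log2 scale.

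Of the other apolipoproteins that bear on triglyceride breakdown or particle uptake, Apoa5, Apoc3 and Apoc1 overlapped between genotypes. Apoa5, whose product promotes lipolysis, read 12.33, 12.49 and 12.42 in null liver and 12.38, 12.35 and 12.39 in wild-type liver. Apoc3, whose product inhibits lipoprotein lipase and slows the uptake of remnants, read 13.40, 13.55 and 13.59 in null liver and 13.41, 13.45 and 13.54 in wild-type liver. Apoc1, whose product hinders the uptake of particles by receptors, read 13.11, 13.22 and 13.16 in null liver and 13.09, 13.11 and 13.13 in wild-type liver. Their log2 fold changes were 0.04, 0.05 and 0.05, and the limma adjusted p-values were 0.845, 0.836 and 0.798.

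Apoe encodes the ligand by which remnant particles bind receptors on hepatocytes. It read 13.92 on each of the 3 null arrays, and 13.97, 13.97 and 13.86 on the wild-type arrays, a log2 fold change of -0.01 (95% interval -0.19 to 0.17). Macrophages also make ApoE, and their markers were lower in null liver: 16 of 18 fell in limma, against 3.13% of all genes tested. A log2 fold change above 0 was found for 0 of the 18, against 6017 of all 11894 genes tested. The median of the 18 was -0.97, with Marco, a scavenger receptor gene, at -2.35, Cd74, the invariant chain gene, at -2.06, Ctss, a cathepsin gene, at -1.18 and Cd5l, a secreted macrophage protein gene, at -1.15. Summed over the list on the linear scale, their signal was 3586 to 3784 in null liver, against 7573 to 8119 in wild-type liver, and none of the 18 was below the filter. In bulk liver fewer macrophages and less RNA per macrophage cannot be told apart, and the part of macrophages in the Apoe signal was not tested.

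Apob had the widest spread of the 10. Its brighter probe set read 12.48, 12.55 and 13.02 in null liver and 12.83, 12.61 and 13.12 in wild-type liver, and replicate 3 was the highest array of both genotypes. The log2 fold change was -0.17 with a 95% interval of -0.57 to 0.23 (limma adjusted p = 0.696). It was -0.34 without null replicate 3, -0.29 without wild-type replicate 2, -0.10 without null replicate 2, -0.07 without null replicate 1 and -0.03 without wild-type replicate 3, with no call in any of them. With the replicate number as a block its SE fell to 0.08, against 0.17 without it, and the adjusted p was 0.292. A dim Apob probe set, 1457554_at, read 6.69, 7.17 and 7.03 in null liver and 6.72, 6.42 and 6.99 in wild-type liver, with a log2 fold change of 0.25 that was not called either.

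For the 6 uncalled genes other than Apob, the log2 fold changes lay between -0.01 and 0.05. Their 95% intervals ran at the widest from -0.19 to 0.25, so that changes above 1.19-fold upward or 1.14-fold downward lay outside every one of them on the scale of these arrays.

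**Figure D2:**
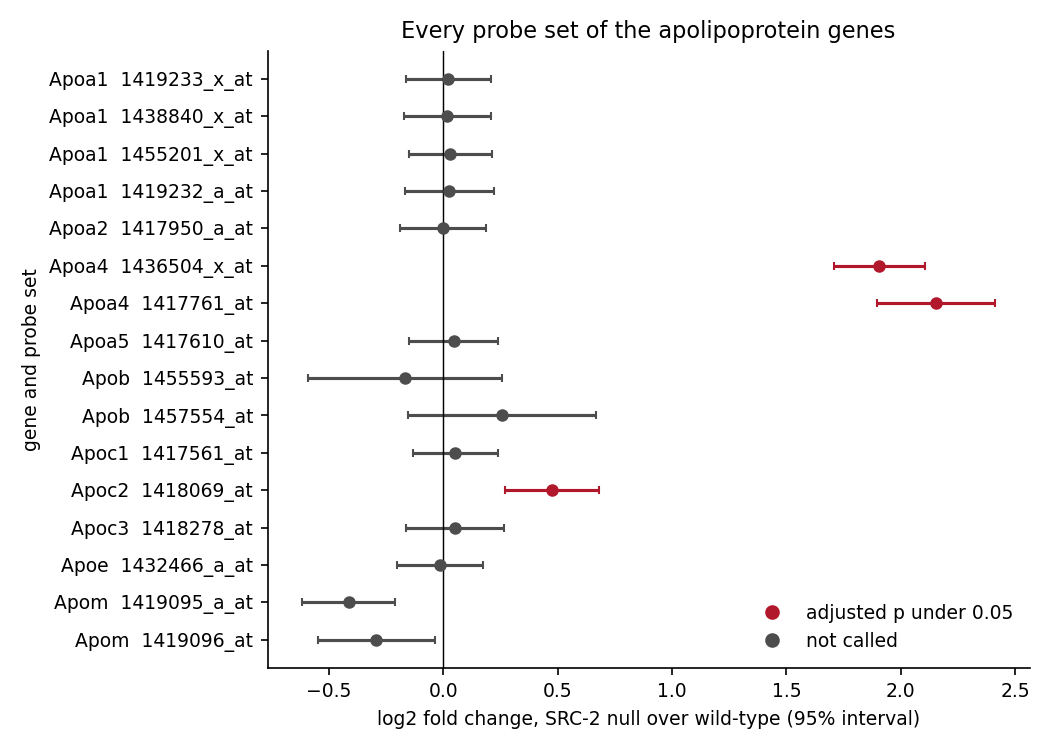
Log2 fold change, SRC-2 null over wild-type, for all 16 probe sets of the apolipoprotein genes, with 95% intervals from limma over all single-gene probe sets; red marks an adjusted p under 0.05. Both Apoa4 probe sets (1.91 and 2.15) and that of Apoc2 (0.48) are red, both Apom probe sets lie below 0 without a call, and the 4 Apoa1 probe sets sit between 0.02 and 0.03.

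Very bright probes may lie near saturation, where a true change is compressed. On average over the 6 arrays Apoa1 lay 0.23 log2 units below the brightest gene, Apoa2 0.30, Apoe 0.50, Apoc3 0.93 and Apoc1 1.29. The 3 called genes lay 3.03 (Apoa4), 3.03 (Apoc2) and 3.18 (Apom) units below it. Among all tested genes, 2 of 49 with a mean of at least 13 were called (4.08%), near the 4.67% of all genes tested. The share was 9.57% (9 of 94) at means of 12 to 13, and 9.83% (57 of 580) at means of 10 to 12. At lower means it was 3.37% to 6.84%. The 2 called genes of the brightest group were Arg1 and Mat1a, enzymes of the urea cycle and of methionine metabolism. The widest change among the 49 was a log2 fold change of 0.48 in Mat1a. Of the 10 apolipoprotein genes, 5 were in that brightest group and 3, the called ones, had means between 10 and 12. The part of saturation in the small changes of the 5 brightest was not tested.

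**Figure D3:**
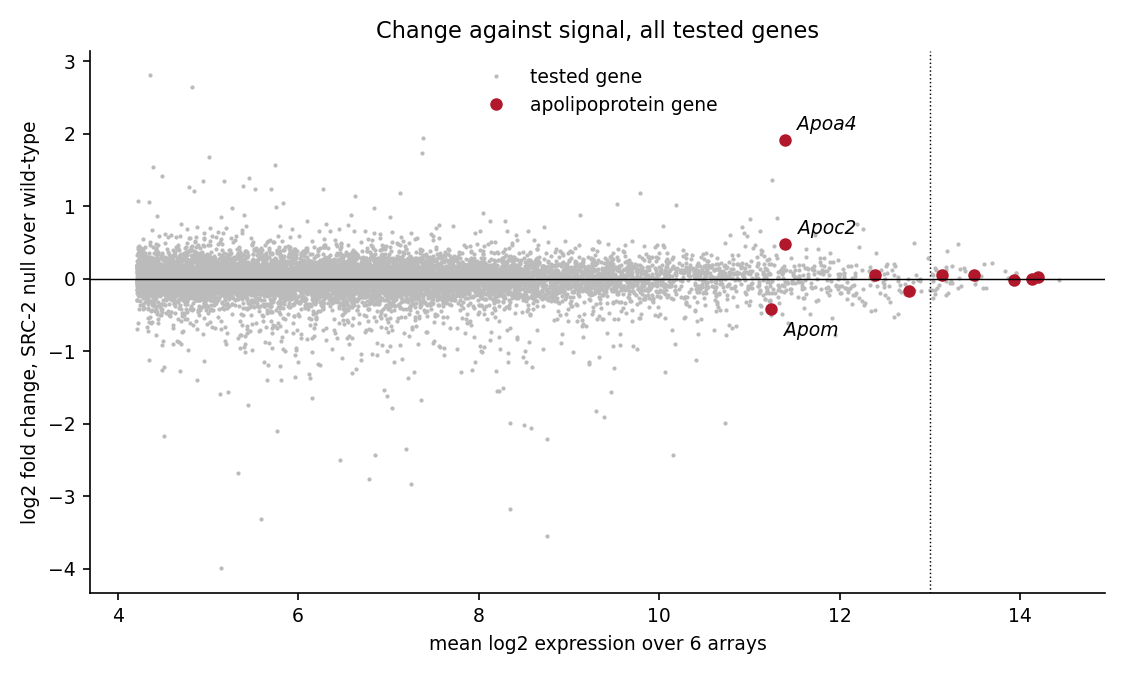
Log2 fold change, SRC-2 null over wild-type, against mean log2 expression for each of 11894 tested genes (grey), with the apolipoprotein genes in red and a dotted line at 13. Apoa4 (1.91) has the largest rise among tested genes with a mean above 10, and the 5 apolipoprotein genes right of the line lie close to 0. Among genes with a mean of 10 to 12, the widest change in either direction is 2.44 log2 units, in Sult2a2.

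Apoa1, Apoc3, Apoa4 and Apoa5 lie side by side on mouse chromosome 9, and Apoc2, Apoc4, Apoc1 and Apoe on chromosome 7, so neighbours could be compared within an array. On chromosome 9, the log2 fold change of Apoa4 exceeded that of Apoa1 by 1.89, that of Apoc3 by 1.86 and that of Apoa5 by 1.86. On chromosome 7, the change of Apoc2 exceeded that of Apoe by 0.49 and that of Apoc1 by 0.42. For each of these 5 differences the null arrays all lay above the wild-type arrays, and the exact two-sided permutation test gave p = 0.1 (0.1 adjusted over the 5), the smallest that the design allows. Each pair set a called gene against an uncalled neighbour whose change was near 0. The differences therefore restate the changes of Apoa4 and Apoc2 and are no separate test. Apoc4 was not among the pairs. Within replicates 1 and 2 the differences of Apoa4 from its neighbours were 1.82 to 1.85, and within replicate 3 they were 1.93 to 1.95.

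None of the 11 flanking genes tested was called, and 4 of them (Zpr1, Bud13, Tomm40 and Bcam) did not overlap between genotypes, against 23.4% of all genes. Beside the chromosome 9 cluster, Sidt2, Pafah1b2 and Sik3 had log2 fold changes of 0.05, -0.26 and -0.14. On its other side Zpr1, Bud13 and 4931429L15Rik had log2 fold changes of -0.29, -0.30 and 0.00. The null arrays of Zpr1, a zinc finger protein gene, and of Bud13, a splicing factor gene, lay below their wild-type arrays. Those of Bud13 read 4.90, 4.89 and 4.84 against 5.19, 5.10 and 5.24, with a limma adjusted p of 0.0881. In the chromosome 7 cluster Apoc4 read 12.27, 12.44 and 12.44 in null liver and 12.29, 12.23 and 12.32 in wild-type liver, with a log2 fold change of 0.10. Tomm40, a mitochondrial import gene next to Apoe, read 8.21, 8.26 and 8.18 against 7.95, 7.88 and 7.64, with a log2 fold change of 0.39 and a limma adjusted p of 0.0692. Nectin2, Bcam, Clasrp and Clptm1 had log2 fold changes of 0.12, 0.25, 0.02 and 0.03, and all null arrays of Bcam lay above its wild-type arrays. Relb lay below the filter and Gm44805 had no probe set with 1 symbol.

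**Figure D4:**
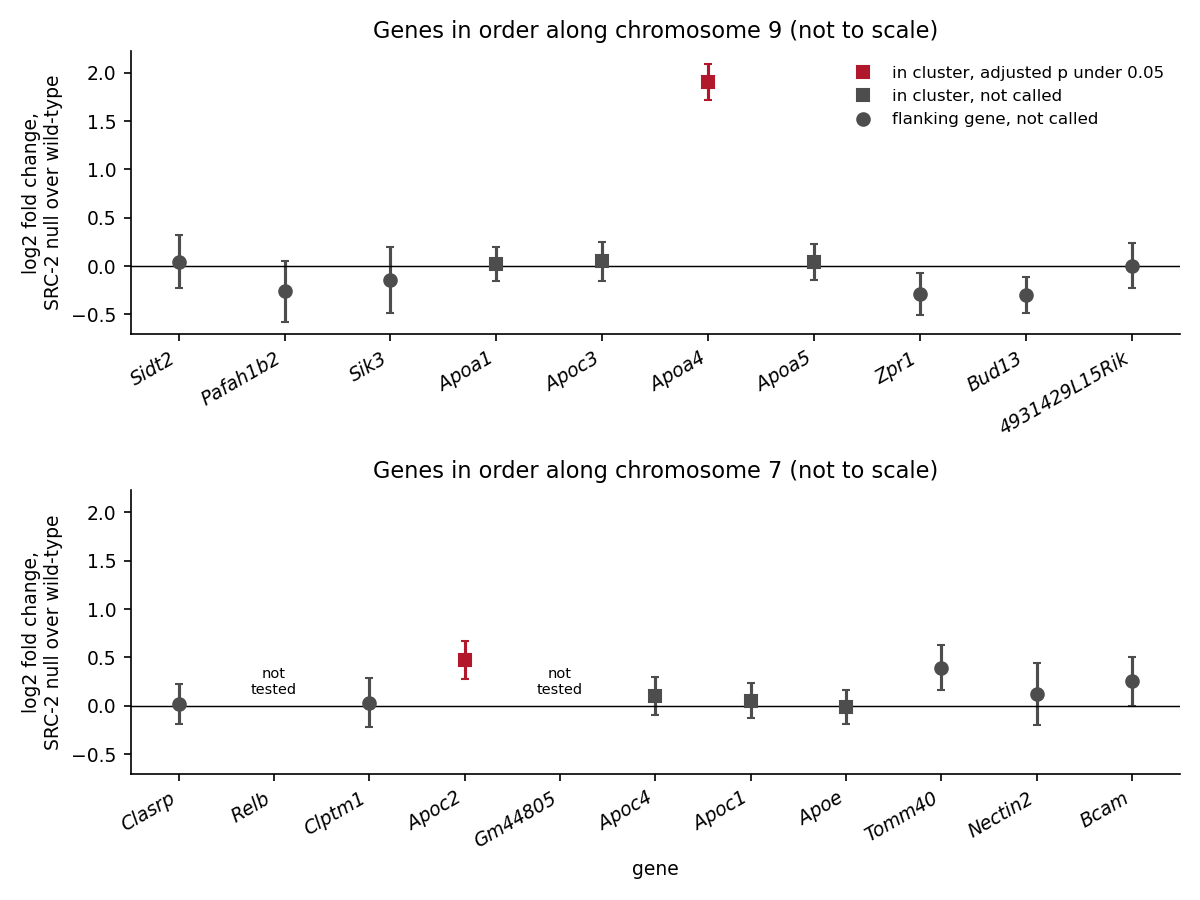
Log2 fold change, SRC-2 null over wild-type, with 95% limma intervals for the genes of the 2 apolipoprotein clusters (squares) and 3 flanking genes on each side (circles), in chromosomal order and not to scale. Apoa4 (1.91) and Apoc2 (0.48) are the called genes, in red, and their neighbours are grey.

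The genes whose profile over the 6 arrays lay closest to that of Apoa4 were found by the root mean square difference of centred log2 values, a description over samples that share 2 genotypes. They were Cyp4a12a, a fatty acid hydroxylase (difference 0.12 log2 units), Lrtm2 (0.15), Fabp4, a fatty acid-binding protein (0.22), Cidea, a lipid droplet protein (0.26), and Cyp2d9, a steroid hydroxylase (0.28). Cyp4a12a read 8.41, 8.39 and 8.27 in null liver and 6.35, 6.35 and 6.53 in wild-type liver. Closest to Apoc2 were Fabp2, Gpt, Rab34, Zadh2 and Gstt2, with differences of 0.04 to 0.05. Closest to Apom were Susd6, B830008H07Rik, Grpel2, Pi4k2b and Otulin, also at 0.04. The order among these rests on hundredths of a log2 unit.

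Of 20 tested genes listed for lipoprotein assembly and secretion, none was called in limma, and their median log2 fold change was 0.04. Not every gene on the list has an established part in loading apolipoproteins with lipid. An unadjusted p under 0.05 was found for 3 of the 20, against 17.2% of all genes tested. Mttp, which transfers lipid onto ApoB and was chosen after its values were seen, read 10.43, 10.31 and 10.40 in null liver and 10.41, 10.39 and 10.66 in wild-type liver. Apobec1, the enzyme that edits Apob RNA, had a log2 fold change of -0.25 (limma adjusted p = 0.203). Tango2 and Sec23a, a coat protein of secretory vesicles, had log2 fold changes of 0.29 and 0.26, and Ces1g, a carboxylesterase, -0.21, none of them called.

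Genes of lipoprotein remodelling and lipolysis moved in both directions, with 1 of 15 higher, 5 lower and 9 not called, and a median of -0.21. Over all genes tested, 4.67% were called. Here 8 of the 15 had an unadjusted p under 0.05, against 17.2% of all genes tested. Lpl, the lipase that ApoC-II activates, rose 1.87-fold, with 8.53, 8.38 and 8.61 in null liver against 7.45, 7.59 and 7.77 in wild-type liver. Lipg, an endothelial lipase acting on high-density lipoprotein, fell by 1.62 on the log2 scale, with 5.89, 5.95 and 6.70 in null liver against 7.40, 7.59 and 8.41 in wild-type liver. Its replicate 3 was the highest of both groups. The sterol exporter genes Abcg5 and Abcg8 fell 1.69-fold and 1.63-fold, Pltp, a phospholipid transfer protein gene, fell 1.42-fold. Angptl4, which blocks lipoprotein lipase, fell 1.31-fold. Lipg and Angptl4 were named after their values were seen. Lcat, whose enzyme ApoA-I activates, had a log2 fold change of -0.14 without a call, and was likewise chosen after its values were seen.

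Of 14 tested lipoprotein receptor and control genes, 1 rose, 1 fell and 12 were not called, with a median of 0.05. An unadjusted p under 0.05 was found for 4 of the 14. For all genes tested the shares were 4.67% called and 17.2% under that unadjusted p. Cd36, a fatty acid and lipoprotein scavenger receptor gene, rose 1.64-fold, and Scarb1, the receptor gene for high-density lipoprotein, fell 1.47-fold. Lrp1 and Lrpap1, a remnant receptor and its chaperone, had log2 fold changes of -0.27 and -0.31 without a call. Of 15 other apolipoprotein and high-density lipoprotein genes, Saa2 and Saa1 rose 1.64-fold and 1.35-fold, Saa4 fell 1.60-fold and 12 were not called. Among those 15, 6 had an unadjusted p under 0.05. Serum amyloid A transcripts resemble each other closely, and the suffixes of the Saa1 and Saa2 probe sets allow shared detection. Apon, a mouse apolipoprotein gene, had a log2 fold change of -0.26 (limma adjusted p = 0.159).

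Of 27 transcription factors known to act on apolipoprotein genes, 1 rose, 3 fell and 23 were not called, with a median of -0.04. Over all genes tested, 4.67% were called. An unadjusted p under 0.05 was found for 6 of the 27, against 17.2% of all genes tested. Srebf1, a regulator of lipid synthesis, Nr0b2, the repressor SHP, and Mlxipl, a glucose-responsive factor, fell 1.95-fold, 1.93-fold and 1.54-fold. Esrra, an orphan receptor gene, rose 1.32-fold. Hnf4a, whose product binds several apolipoprotein promoters, read 10.90, 10.97 and 11.12 in null liver and 11.05, 11.04 and 11.08 in wild-type liver, so the groups overlapped. Creb3l3, a liver factor known to activate Apoa4 in mice and chosen, like Hnf4a, after its values were seen, read 10.56, 10.70 and 10.65 in null liver and 10.47, 10.41 and 10.47 in wild-type liver. All its null arrays were the higher ones, but it was not called (log2 fold change 0.18, 95% interval -0.0023 to 0.37, limma adjusted p = 0.298). The genotypes did not overlap for 7 of the 27 factors, near the 23.4% of all genes tested.

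Hepatic Apoa4 is known to vary with fasting and with fat stored in the liver, so 2 further lists were read beside it. Of 16 fasting and PPARA response genes, none rose (limma; Cpt1a, a fatty acid oxidation enzyme, had the smallest p of those above 0, with a log2 fold change of 0.43 and an adjusted p of 0.0678) and 3 fell. These were Pdk4, a kinase of pyruvate dehydrogenase (1.94-fold), Angptl4 (1.31-fold) and Acot1, a thioesterase (1.30-fold), and the list median was 0.06. An unadjusted p under 0.05 was found for 7 of the 16. Of 18 lipid droplet and steatosis genes, 7 rose, 2 fell and 9 were not called, with a median of 0.31, and 13 had an unadjusted p under 0.05. For all genes tested the shares were 4.67% called and 17.2% under that unadjusted p. The droplet fusion genes Cidec and Cidea rose 6.25-fold and 2.91-fold, Fabp4 3.31-fold and Fitm1, a gene of droplet formation, 1.55-fold. Plin5 and Plin4, droplet coat genes named after their values were seen, fell by 0.58 and 0.55 on the log2 scale. The samples' feeding state is not in the labels and cannot be told apart from genotype.

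**Figure D5:**
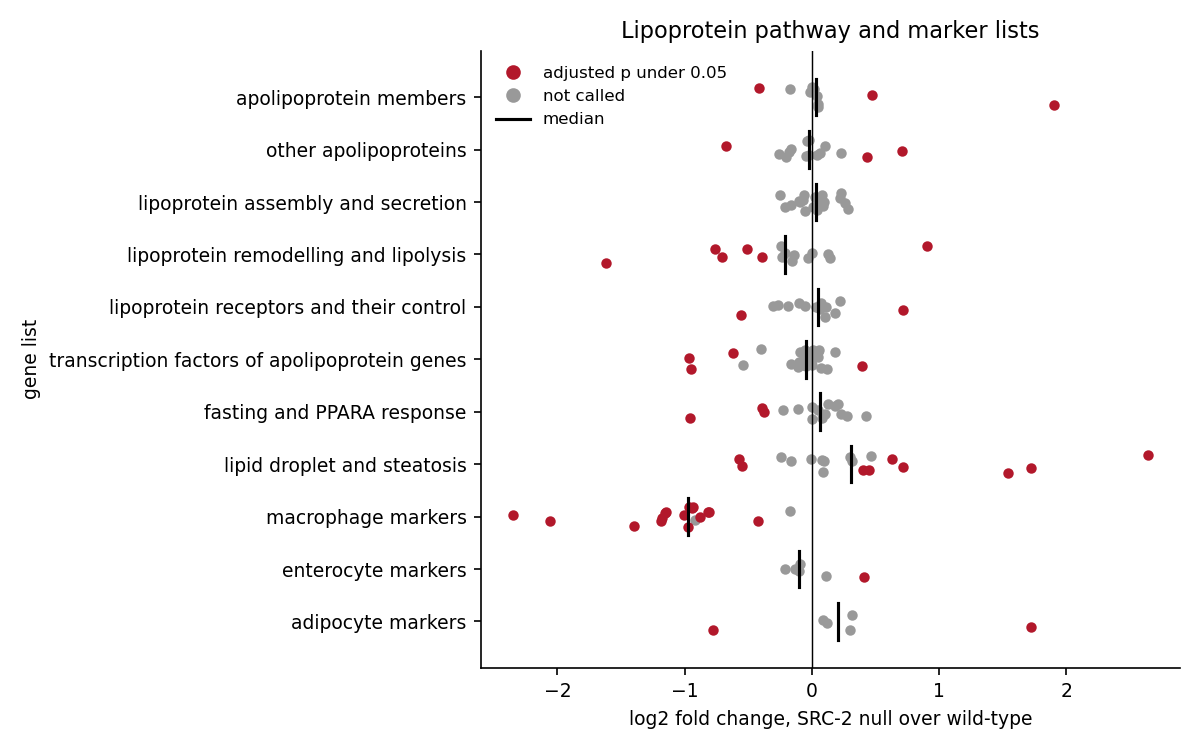
Log2 fold change, SRC-2 null over wild-type, of the tested members of 11 gene lists (points, 1 per gene; red, adjusted p under 0.05; black line, list median; vertical scatter has no meaning). Lipoprotein assembly holds no red point, macrophage markers centre on -0.97, and Apoa4 (1.91) is the rightmost apolipoprotein gene.

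ApoA-IV is also made by enterocytes, and Fabp4, Cidea and Cidec are known from fat cells, so markers of both cell types were read beside Apoa4. Of 17 enterocyte markers on the arrays, 11 lay below the filter, among them Vil1, Alpi, Muc2 and Slc5a1, which define intestinal epithelium. Of the 6 tested, Fabp2, a fatty acid-binding protein gene, rose 1.33-fold and 5 were not called, with a median of -0.10. The summed linear signal of the list was 1643 to 1794 in null liver and 1646 to 1787 in wild-type liver. Fabp2 (mean log2 9.06 in null and 8.65 in wild-type liver) and Dpp4 (9.19 and 9.28) made up most of that sum. With 11 markers below the filter, it says little about enterocytes. Of 9 adipocyte markers on the arrays, 3 lay below the filter, including Adipoq and Lep, Fabp4 rose and Car3, a carbonic anhydrase gene also abundant in liver, fell 1.71-fold. Their summed signal was 3589 to 3752 in null liver, against 5412 to 5639 in wild-type liver. Car3 made up most of that sum, and without it the sum of the other 8 was 617 to 687 in null liver, against 360 to 399 in wild-type liver. Fabp4, which is among those 8 and also on the lipid droplet list, had mean log2 values of 8.23 in null and 6.50 in wild-type liver. The sum was not split further by gene. The other 4 tested, among them Lipe, a hormone-sensitive lipase gene, and Retn, the resistin gene, were not called, and the list median was 0.21. Of the 6 tested, 5 had a log2 fold change above 0, against 6017 of all 11894 genes tested. The share called over all genes tested, to be set beside the calls in both lists, was 4.67%. An unadjusted p under 0.05 was found for 4, against 17.2% of all genes tested. Lipe was higher on all null arrays (6.72, 6.56 and 6.68 against 6.26, 6.46 and 6.28). The genotypes did not overlap for 3 of the 6, against 23.4% of all genes tested. Plin1 and Cfd had no probe set with 1 symbol. The part of either cell type in the Apoa4 signal was not tested.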

How the data were processed

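The deposited values are log2 expression, for which the submitters' processing notes name RMA (robust multi-array average). For the version, chip file and genome build, no value is given in the sources used here. RMA equalises the arrays' distributions. Changes at both ends of the scale may be compressed. Gene names came from the platform annotation, which can be old. Of 45101 probe sets, 34945 had 1 symbol, 932 several and 9160 none, and 64 were controls. Each gene was read from its brightest probe set over 6 arrays. Genes were tested where that mean reached 4.21, the median over all probe sets. Genotypes were compared with limma 3.58.1 (lmFit, eBayes, two-sided) in R 4.3.3, with Benjamini-Hochberg adjustment over all genes tested, and again over all single-gene probe sets. The procedure was tested on simulated data with independent noise on each array, which lacked the shared pattern of replicate 3.

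Groups and replicate numbers are those of the labels. Deviations from group means correlated between same-numbered arrays of the 2 genotypes at 0.18, 0.20 and 0.52 over 11894 genes, all above 0.1. Those of null replicate 2 with wild-type replicate 1 (0.21) and of null replicate 1 with wild-type replicate 2 (0.17) were as high, so the numbers set apart only replicate 3. A replicate block was also fitted. It changed the call of none of the 10 genes. No 2 arrays were identical, and their number limits precision.

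Genes named were the 10 members, up to 4 of each list with the smallest p, every called member where 5 or fewer were called, cluster neighbours and the 5 closest profiles. Members and lists were chosen with earlier results of these data known. Lists covered other apolipoproteins, lipoprotein assembly, remodelling and receptors, transcription factors, fasting, lipid droplets, and markers of hepatocytes, macrophages, enterocytes, adipocytes, cholangiocytes, endothelium and stellate cells. Promoters are from RefSeq tables of GRCm38.p6. Figures used matplotlib 3.10.9 in Python 3.11.15.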

Additional observations from a re-analysis of the deposited data

How the results depend on the processing

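Apoa4 kept its direction and call under 16 alternatives, with adjusted p-values up to 0.00125. Apoc2 and Apom kept their direction under 16 alternatives each and were called in 11 and 9 of them. Of the 10 genes, 3 were called with the replicate block (and 3 of the probe sets), 1 with replicates 1 and 2 only, and 1 to 3 when 1 array was left out. That leaves fewer samples. The count over all genes was 556, and it became 832 with the replicate block, 982 with replicate 3 as a batch block, 985 with array weights, 329 with replicates 1 and 2 only and 275 to 438 when 1 array was left out. Among uncalled genes, whose values lie near 0, the sign turned for Apoa1 without null replicate 3 (log2 fold change -0.0041), for Apoa2 without null replicate 1 (0.030) or wild-type replicate 1 (0.0012) or 2 (0.015), and for Apoe without wild-type replicate 1 (0.0033) or 2 (0.0057). It turned for Apob with the mean of its probe sets (0.043). Leaving out 1 array put these values between -0.0041 and 0.040 for Apoa1, -0.019 and 0.030 for Apoa2 and -0.049 and 0.0057 for Apoe, and between -0.34 and -0.03 for Apob. The cause was not tested. Without probe sets ending in _s_at, _x_at or _a_at, Apom was read from 1419096_at and not called (adjusted p = 0.216). The log2 ratio of the summed adipocyte markers, null over wild-type, was -0.59, and 0.79 without Car3, an alternative chosen after seeing the data. The sum without Car3 includes Fabp4, which was itself called higher.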

Other observations

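Markers of 3 further liver cell types were read beside the apolipoproteins. Over all genes tested, 4.67% were called. Of 6 cholangiocyte markers tested, Krt23, a keratin gene, rose 2.54-fold, while Cd24a, a surface glycoprotein gene, fell 2.00-fold and Krt19, another keratin gene, fell 1.40-fold. The median of that list was -0.14. Of 11 endothelial markers, Flt1, a receptor gene for vascular growth factors, rose 1.36-fold and 10 were not called, with a median of -0.02. Of 13 stellate cell and matrix markers, Rgs5, a pericyte gene, rose 1.57-fold, Sparc, a matrix protein gene, rose 1.31-fold and 11 were not called, with a median of -0.06.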
